A study of Sus scrofa with 12 samples.

Results

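COASY, ASL, ASPA and IDH1 are 4 genes of intermediary metabolism whose array signals differed between stent types in pig coronary arteries. The set was chosen by earlier results of these same arrays, which had called COASY, ASL and ASPA lower around sirolimus-eluting than around bare metal stents, and COASY higher and IDH1 lower around zotarolimus-eluting than around sirolimus-eluting stents. All probe sets that the array's annotation gives to 1 of these symbols alone were used. The 4 genes, of 5793 tested, have 5 of the array's 24123 probe sets, 2 for COASY and 1 for each of the others, and all 5 passed the filter on low values. The differences between sirolimus-eluting and the other stents are therefore given below as a description. Their intervals, and the adjusted p-values by which the genes were chosen, are quoted as values and are no independent test.

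The tissue was coronary artery of Yorkshire farm pigs, taken 28 days after angioplasty and stent implantation and dissected by hand from the stent. The stents compared were a bare metal stent without drug (BMS), one that releases sirolimus (SES, sirolimus-eluting) and one that releases zotarolimus (ZES, zotarolimus-eluting). All 3 groups thus received a metal stent, and no artery without a stent was analysed here. Sirolimus inhibits the mTOR kinase, and zotarolimus is an analog of sirolimus with a tetrazole in place of a hydroxyl group. Overlapping stents are named in the series title, and the sources used here give neither the doses nor the age of the pigs, so ZES and SES are compared as stents and not as drugs at matched doses. Each group held 4 artery segments from 2 pigs, named here by stent and a number, where 1 and 2 share a pig and 3 and 4 share another. Each pig gave 1 segment of the right coronary artery (RCA) and 1 of the left anterior descending (LAD), except that SES 1 was of the left circumflex (LCX). Stent type differed only between pigs, and with 2 pigs per stent type the tests below draw chiefly on how much segments varied.

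The 4 enzymes work in separate corners of metabolism. COASY, the bifunctional coenzyme A synthase, carries out the last steps that turn phosphopantetheine into coenzyme A, the carrier of acetyl and fatty acyl groups. ASL, argininosuccinate lyase, splits argininosuccinate into arginine and fumarate in the urea cycle, and in other tissues it helps to renew arginine from citrulline. Arginine is the substrate of the nitric oxide synthases, which act in the vessel wall. ASPA, aspartoacylase, splits N-acetylaspartate into acetate and aspartate and is best known from the white matter of the brain. IDH1, isocitrate dehydrogenase of the cytosol and peroxisomes, turns isocitrate into 2-oxoglutarate and makes NADPH, which serves lipid synthesis and the thioredoxin and glutathione systems.

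Pairs of arrays correlated at 0.769 to 0.882, and 61.0% to 74.5% of an array's probe sets lay above its background. The means of control signals were not alike in the 3 groups. Spike-in controls, put in before hybridisation, had a log2 signal of 16.30 ± 0.38 on BMS arrays, 15.09 ± 0.43 on SES arrays and 15.30 ± 0.58 on ZES arrays (mean ± SD, n = 4). The GAPDH control near the 3′ end of its transcript minus that near the 5′ end was 4.16 ± 0.50, 2.71 ± 0.35 and 3.66 ± 0.19 in the same order. Every SES array (2.33 to 3.02) lay below every BMS (3.64 to 4.63) and ZES array (3.44 to 3.91) in this difference. In spike-in signal every SES array (at most 15.60) lay below every BMS array (at least 15.74). Between SES and BMS, stent type and these controls thus cannot be told apart. Between SES and ZES the same holds for stent type and the GAPDH difference. Smooth muscle marker RNA was present on all arrays, with ACTA2, smooth muscle actin, between 13.44 and 16.17. Heart muscle marker RNA varied in every group. The mean of 12 cardiomyocyte markers was 5.49 to 8.14 on BMS arrays and 6.07 to 8.55 on ZES arrays. On SES 4 it was 8.93, against 5.32 to 5.58 on the other SES arrays. Values are log2 signals throughout, each compared only with the same probe set on other arrays, and a difference of 1 is a factor of 2.

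COASY was measured by 2 probe sets, called here the brighter and the dimmer set. The brighter set read 14.57, 13.72, 14.15 and 14.32 on BMS 1 to 4. It read 10.93, 9.73, 11.21 and 13.04 on SES 1 to 4. It read 13.57, 14.50, 13.70 and 13.82 on ZES 1 to 4. Every SES segment lay below every BMS and every ZES segment, SES 4 was the closest to them, and the BMS and ZES segments overlapped. The group means were 14.19 ± 0.36 (BMS), 11.23 ± 1.37 (SES) and 13.90 ± 0.41 (ZES; mean ± SD, n = 4), so the spread was widest with SES. SES was 2.96 ± 0.48 (SE) below BMS on the log2 scale, a factor of 7.80 with a 95% interval of 3.88 to 15.7. ZES was 2.67 ± 0.48 above SES, a factor of 6.37. In both SES pigs the mean was below that of every other pig, at 10.33 for SES 1 and 2 and 12.12 for SES 3 and 4, against 13.76 to 14.24 in the other pigs.

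The dimmer COASY set gave a smaller difference with SES. It read 8.06, 8.81, 7.01 and 8.79 on BMS 1 to 4. It read 6.89, 7.07, 7.65 and 7.07 on SES 1 to 4. It read 9.85, 9.76, 8.0 and 8.25 on ZES 1 to 4. BMS 3 lay among the SES segments, so SES and BMS overlapped, while every ZES segment lay above every SES segment. SES was 1.0 ± 0.53 below BMS, with an interval of the log2 difference from -2.11 to 0.11, and ZES was 1.80 ± 0.53 above SES. Over the 12 arrays the signals of the 2 COASY sets correlated at r = 0.57, and after each group's mean was subtracted at r = 0.044, both given as a description. SES 4, the highest SES array of the brighter set, was not the highest of the dimmer set. The name of the brighter set ends in "_s_at", which Affymetrix uses for probe sets that can match several transcripts, so which RNA it measured was not settled from the files.

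ASL had its 4 lowest values on the SES arrays. Its probe set read 8.89, 8.07, 8.77 and 7.82 on BMS 1 to 4. It read 5.64, 6.65, 5.34 and 6.04 on SES 1 to 4. It read 7.48, 7.38, 7.28 and 8.29 on ZES 1 to 4. All SES segments lay below all others, and of the ZES segments 3 lay between the SES and the BMS segments while ZES 4 lay within the BMS range. Group means were 8.39 ± 0.52 (BMS), 5.92 ± 0.57 (SES) and 7.61 ± 0.46 (ZES). SES was 2.47 ± 0.49 below BMS, a factor of 5.54 with an interval of 2.72 to 11.3, and ZES was 1.69 ± 0.49 above SES, a factor of 3.22. All 12 ASL signals were above the background of their array, which was 4.88, 4.15, 4.47 and 5.39 on SES 1 to 4. The signals of SES 1, SES 3 and SES 4 lay close above it, so the size of the difference is uncertain. With a pseudocount of 32 SES minus BMS was -1.98.

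ASPA had its 4 lowest values on the SES arrays too. Its probe set read 9.76, 9.40, 9.40 and 8.87 on BMS 1 to 4. It read 6.58, 7.10, 4.29 and 6.96 on SES 1 to 4. It read 7.38, 9.52, 7.18 and 8.58 on ZES 1 to 4. All SES segments lay below all others, and SES 3 lay below the background of its array, which was 4.47, so ASPA was measured on 3 of 4 SES arrays. ZES segments split by artery, with both RCA segments near SES and both LAD segments near BMS. Group means were 9.36 ± 0.37 (BMS), 6.24 ± 1.31 (SES) and 8.16 ± 1.10 (ZES). SES was 3.12 ± 0.62 below BMS, a factor of 8.72 with an interval of 3.50 to 21.7, and ZES was 1.93 ± 0.62 above SES, a factor of 3.81. Without SES 3 the difference between SES and BMS was -2.48, against -2.96 for the brighter COASY set without the same array.

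IDH1 went the other way. Its probe set read 9.66, 9.67, 10.74 and 10.05 on BMS 1 to 4. It read 11.33, 11.52, 11.26 and 10.80 on SES 1 to 4. It read 9.49, 8.68, 9.48 and 9.74 on ZES 1 to 4. Every SES segment lay above every other segment, by a narrow gap between SES 4 and BMS 3, and ZES 4 lay inside the BMS range while the other ZES segments lay below it. Group means were 10.03 ± 0.50 (BMS), 11.22 ± 0.31 (SES) and 9.35 ± 0.46 (ZES). SES was 1.19 ± 0.34 above BMS, a factor of 2.29 with an interval of 1.40 to 3.74, and ZES was 1.88 ± 0.34 below SES, a factor of 3.67 with an interval of 2.25 to 5.99.

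**Figure D1:**
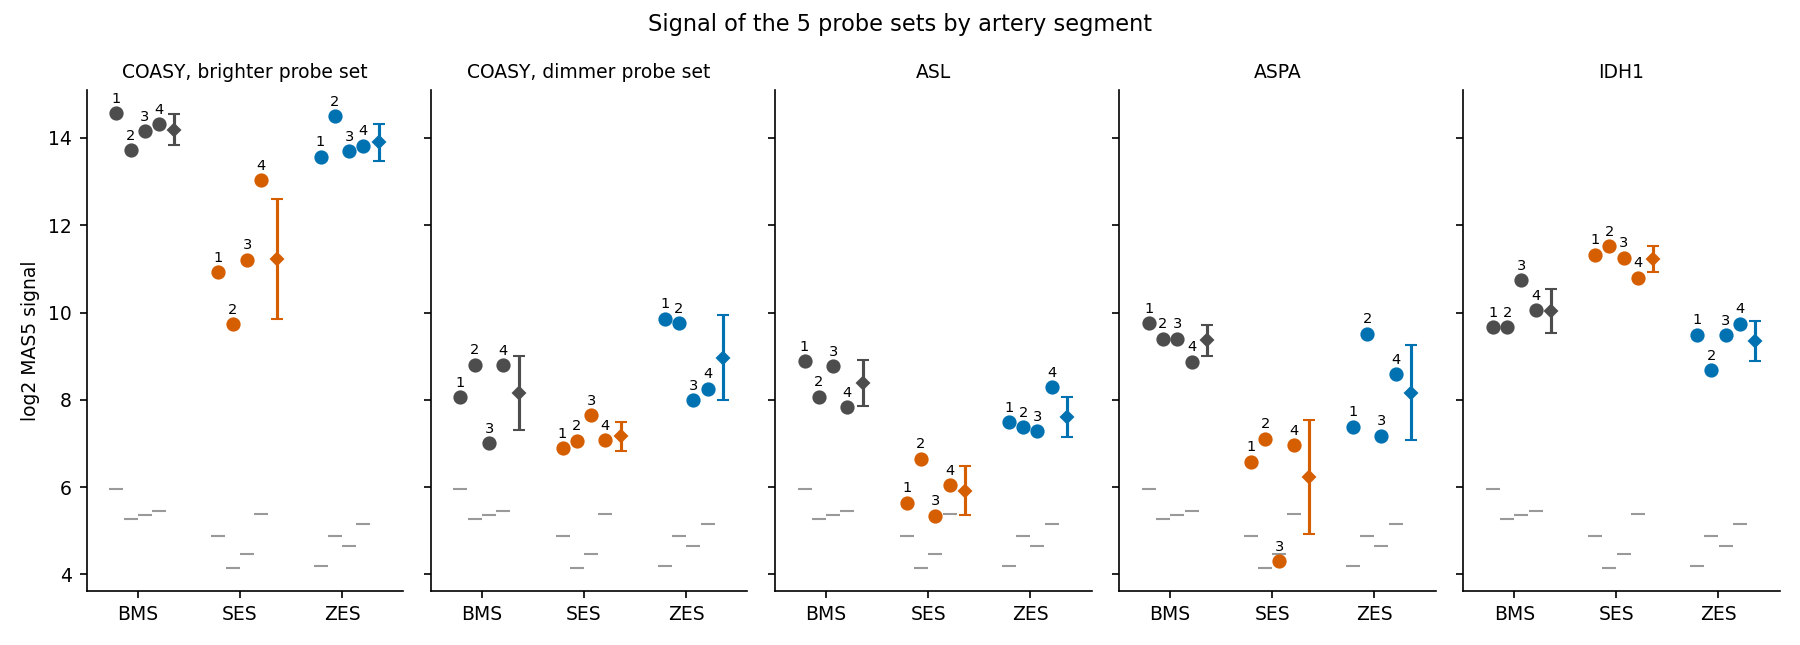
Log2 signal of the 5 probe sets (vertical axis) in each artery segment, by stent group (horizontal axis); circles are segments with their number, diamonds with bars are group means ± SD (n = 4), and short grey lines mark the background of each array. With SES the brighter COASY set, ASL and ASPA lie below all BMS and ZES segments and IDH1 lies above them, and ASPA on SES 3 (4.29) lies under its background (4.47).

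From highest to lowest, the order of the group means was BMS, ZES, SES for the brighter COASY set, ASL and ASPA, ZES, BMS, SES for the dimmer COASY set, and SES, BMS, ZES for IDH1. In each case BMS and ZES were neighbours in the order, and their segments overlapped in all 5 probe sets. The 2 drug-eluting groups therefore stood on opposite sides of BMS for IDH1 and the dimmer COASY set, by group mean only. Between SES and BMS, 3 of 5 probe sets had all SES segments lower, against 4.51% of the 16799 probe sets tested, and IDH1 had all SES segments higher, against 4.23%. Between ZES and SES, 4 of 5 had all ZES segments higher, against 2.94%, and IDH1 had all ZES segments lower, against 3.06%. Nothing is read from these counts, because the same contrasts chose the genes.

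The threshold that chose the genes was an adjusted p under 0.05 in limma with Benjamini-Hochberg adjustment over all probe sets. Just inside it were COASY and IDH1 for ZES against SES, both at 0.0461, and the values for SES against BMS were 0.0150 for COASY and 0.0290 for both ASL and ASPA. Just outside it was IDH1 for SES against BMS, at 0.102. By this rule 0.185% of probe sets were lower with SES than with BMS, and 0.0714% differed between ZES and SES in either direction. On means per pig, the unit between which stent type differed, the adjusted p for SES against BMS was 0.0245 for COASY, 0.0431 for ASPA and 0.0903 for ASL, so ASL no longer met the rule. Leaving out 1 array often meant that a gene would not have been chosen. For SES against BMS, COASY passed when any 1 BMS array, SES 2 or SES 4 was left out but not without SES 1 or SES 3, and ASL and ASPA each passed without BMS 4 or SES 4 but not without BMS 1, BMS 2, BMS 3, SES 1, SES 2 or SES 3. For ZES against SES, COASY passed without SES 4 or ZES 1 only, and IDH1 without SES 4, ZES 1 or ZES 4 only, among the 8 arrays of those groups. A BMS array enters this contrast only through the shared spread, and COASY did not pass without BMS 2 or BMS 3, nor IDH1 without BMS 2. Leaving out an array could not turn the sign of these differences, because the segments of the groups did not overlap. In SES against BMS they lay between -3.58 and -2.44 for COASY, -2.71 and -2.28 for ASL, and -3.43 and -2.48 for ASPA. For ZES against SES they lay between 2.15 and 3.29 for COASY and between -2.02 and -1.65 for IDH1.

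The comparison of ZES with BMS sets the zotarolimus-eluting stent beside the bare metal stent, each as a whole stent and not as drug against no drug alone. It did not choose the genes, although it shares the BMS arrays with one that did. None of the 5 probe sets passed the test. The ZES mean was 0.29 ± 0.48 lower for the brighter COASY set, with a 95% interval of the log2 difference from -1.30 to 0.72 and adjusted p = 0.898. The dimmer COASY set read 0.80 ± 0.53 higher with ZES (interval -0.31 to 1.91, adjusted p = 0.680), opposite in sign to the brighter one. ASL read 0.78 ± 0.49 lower, with an interval from -1.81 to 0.25 and adjusted p = 0.659. ASPA read 1.20 ± 0.62 lower, with an interval from -2.51 to 0.12 and adjusted p = 0.600. IDH1 read 0.68 ± 0.34 lower, with an interval from -1.39 to 0.026 and adjusted p = 0.572. These intervals leave room for a factor of up to 5.70 for ASPA and 2.46 for the brighter COASY set, so the result does not show that the genes were alike around ZES and BMS. In this comparison limma called 0 probe sets of 16799 (0%), with 1510 at an unadjusted p under 0.05. The share of probe sets without overlap between the groups was 3.82% in either direction, and none of the 5 was among them.

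**Figure D2:**
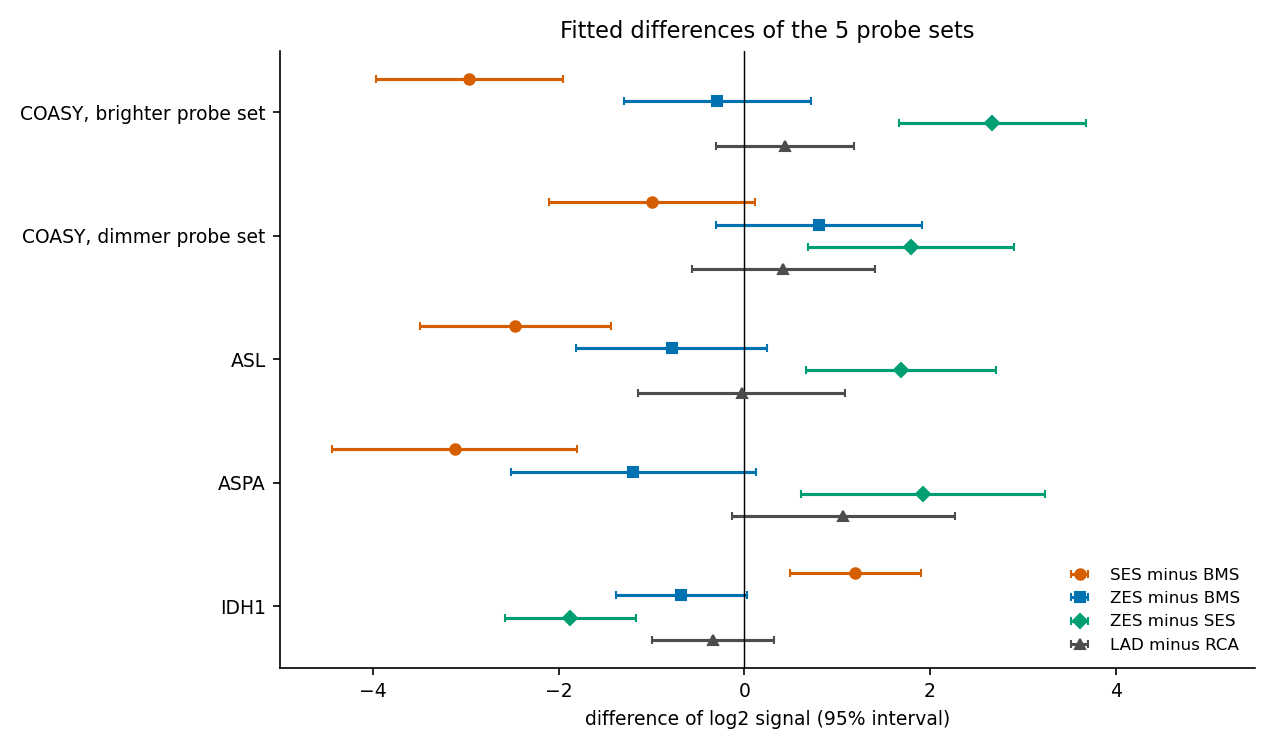
Fitted difference of log2 signal with its 95% interval (horizontal axis) for the 5 probe sets (vertical axis) in 4 comparisons, from limma on all 12 arrays. SES minus BMS lies left of 0 for both COASY sets, ASL and ASPA and right of it for IDH1, with an interval that crosses 0 for the dimmer COASY set only, ZES minus SES has the opposite sign, and every interval of ZES minus BMS and of LAD minus RCA crosses 0.

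The artery offers a comparison within pigs, in which the stent type is the same on both sides and which did not choose the genes. In 5 pigs an LAD and an RCA segment were available, and none of the 5 probe sets passed the test of LAD against RCA. ASPA had the largest difference, 1.07 ± 0.55 higher in the LAD (interval -0.14 to 2.27, adjusted p = 0.738). Within pigs it was 2.67 with SES 3 and 4, where ASPA on SES 3 lay below background, so this size is uncertain. With ZES 1 and 2 it was 2.14, and with ZES 3 and 4 it was 1.41. In the BMS pigs it was -0.36 and -0.53. ASPA was thus higher in the LAD in 3 of 5 pigs, the 3 with drug-eluting stents, and lower in both pigs with BMS. The mean of the cardiomyocyte markers in LAD and RCA segments was 8.93 and 5.58 in SES 4 and 3, 6.84 and 6.07 in ZES 2 and 1, and 8.55 and 6.64 in ZES 4 and 3. In BMS pigs it was 6.96 and 7.84 in BMS 2 and 1, and 8.14 and 5.49 in BMS 4 and 3, so it was higher in the LAD in 4 of 5 pigs, and the part of heart muscle in the ASPA difference was not tested.

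The brighter COASY set was 0.44 ± 0.34 higher in the LAD (interval -0.30 to 1.18, adjusted p = 0.797) and higher in 4 of 5 pigs, and the dimmer one was 0.42 ± 0.45 higher (adjusted p = 0.858) and higher in 3 of 5. ASL differed by -0.031 ± 0.51 (adjusted p = 0.993), with LAD above RCA in 2 of 5 pigs, and its sign turned when either BMS pig was left out. IDH1 was 0.34 ± 0.30 lower (adjusted p = 0.821), with LAD above RCA in 2 of 5 pigs. For this comparison limma called 0 of 16799 probe sets (0%), with 1140 at an unadjusted p under 0.05.

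**Figure D3:**
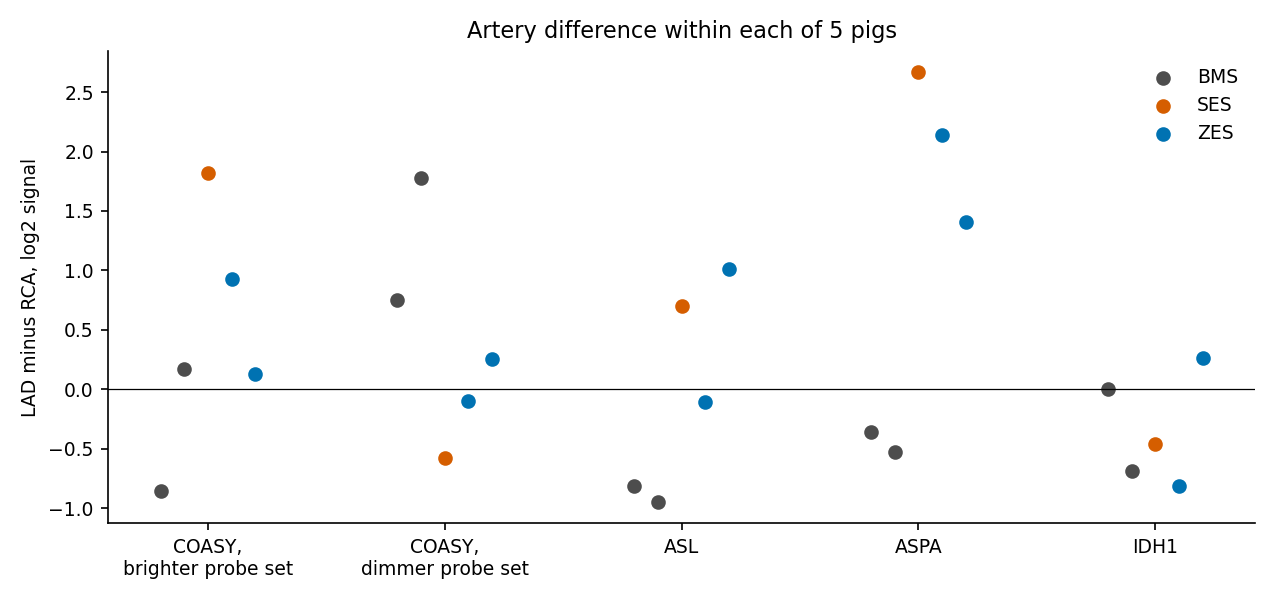
LAD minus RCA in log2 signal (vertical axis) within each of the 5 pigs that had both segments, for the 5 probe sets (horizontal axis), coloured by stent. ASPA lies above 0 in the 3 pigs with drug-eluting stents, between 1.41 and 2.67, and below 0 in both BMS pigs. The value of 2.67 is of the SES pig, whose RCA segment lay below background for ASPA.

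The level of smooth muscle marker RNA also varied along the same contrasts. The mean of 21 contractile smooth muscle genes was 11.64 to 12.54 on BMS arrays and 10.32 to 12.83 on ZES arrays. With SES it was 9.53, 9.74 and 9.87 on SES 1 to 3 and 11.89 on SES 4, which was also the SES array with the highest signal of the brighter COASY set and the lowest of IDH1. The highest SES signals of ASL (6.65) and ASPA (7.10) were on SES 2 instead. ZES 1 had a low marker mean of 10.32, while its brighter COASY signal of 13.57 lay just under the lowest BMS value. Of the 21 marker genes, 20 had a lower mean with SES than with BMS and all 21 a higher mean with ZES than with SES, with medians of -1.73 and 1.57 against -0.0064 and 0.0099 over all genes. None of the 21 passed the test singly in either comparison, where 0.898% and 0.121% of all genes did. At an unadjusted p under 0.05 in limma were 17 of the 21 for SES against BMS and 13 for ZES against SES. Of all probe sets, 14.3% and 10.0% were.

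With the smooth muscle mean as a covariate, the difference between SES and BMS was -1.80 for the brighter COASY set, -2.35 for ASL, -2.18 for ASPA and 0.68 for IDH1. Without the covariate the values were -2.96, -2.47, -3.12 and 1.19, so all 4 were smaller in size with it, ASL by the least. With the spike-in signal as the covariate the same difference was -1.80 for COASY, -2.20 for ASL, -2.85 for ASPA and 1.35 for IDH1. With the GAPDH control difference it was -1.5, -2.72, -3.34 and 0.96. All signs were kept. In each of these 3 fits limma put 0 of the 16799 probe sets past the threshold between SES and BMS, with 1224 at an unadjusted p under 0.05 for the smooth muscle mean, 1013 for the spike-in signal and 1059 for the GAPDH control difference, so that none of the 4 genes passed says nothing particular about them. In whole tissue, fewer cells of a type and less RNA per cell cannot be told apart.

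SES 4 stood apart from the other SES arrays in smooth muscle and heart muscle markers, but in smooth muscle markers not from the BMS and ZES arrays. Without SES 4, SES minus BMS was -3.58 for the brighter COASY set, -2.50 for ASL, -3.33 for ASPA and 1.34 for IDH1. The marker genes of other cells of the wall gave mixed values. T and NK cell markers had a median difference between SES and BMS of 2.07 over 8 genes, with 7 positive and 1 negative. Past the threshold were 2 of them, against 0.898% of all genes. CD3E, part of the T cell receptor, was 4.90 ± 0.83 higher with SES (limma, adjusted p = 0.0172). SH2D1A, a signalling adaptor of T and NK cells, was 3.72 ± 0.75 higher (adjusted p = 0.0290). CD2, the brightest of the list, had means of 7.04 (BMS) and 6.91 (SES). Only 2 to 4 of the 8 markers were above background on a BMS array, against 7 or 8 on an SES array. SH2D1A read 3.95 to 6.09 with BMS, where the backgrounds were 5.27 to 5.96. The 14 endothelial markers had a median of 0.33, with 9 positive and 5 negative. GJA4, a connexin of arterial endothelium, fell by 2.87 ± 0.61 (adjusted p = 0.0401) and was the only one of them past the threshold, against the sign of the median. CDH5, the cadherin of endothelial junctions, read 2.91 to 6.07 with BMS and 6.25 to 7.15 with SES, and was above background on 10 of 12 arrays. The endothelial genes PECAM1 (8.82 to 9.63 with BMS, 9.09 to 9.85 with SES) and VWF (3.14 to 6.24 and 3.72 to 8.0) overlapped between these groups. Adipocyte markers, 12 genes, had array means of 7.53 to 7.90 with BMS, 7.13 to 7.94 with SES and 6.56 to 8.59 with ZES. Between 8 and 12 of the 12 were above background on each array. Their median difference between SES and BMS was -0.44, with 4 positive and 8 negative and none past the threshold. FABP4, a fatty acid carrier of fat cells and some other cells, had group means of 11.81 (BMS), 11.77 (SES) and 11.94 (ZES). The next brightest of the list, PNPLA2 and MGLL, had 11.58, 11.06 and 12.37, and 11.05, 9.61 and 10.13, in the same order. Of the hormones of fat cells, LEP was above background on 9 of 12 arrays and ADIPOQ, which did not pass the filter, on 0 of 12. The mean of 7 nerve and Schwann cell markers was 7.09 to 7.91 on BMS arrays, 6.43 to 7.15 on SES arrays and 6.97 to 7.84 on ZES arrays. Between SES and BMS their median difference was -0.27, with 3 positive and 4 negative, 3 at an unadjusted p under 0.05 and none past the threshold. S100B, a glial protein, had means of 10.12 (BMS) and 8.64 (SES), UCHL1, a neuronal protein, 9.84 and 8.71, and MBP, a myelin protein, 8.99 and 9.51. The part of these cells in the values of ASPA was not tested.

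**Figure D4:**
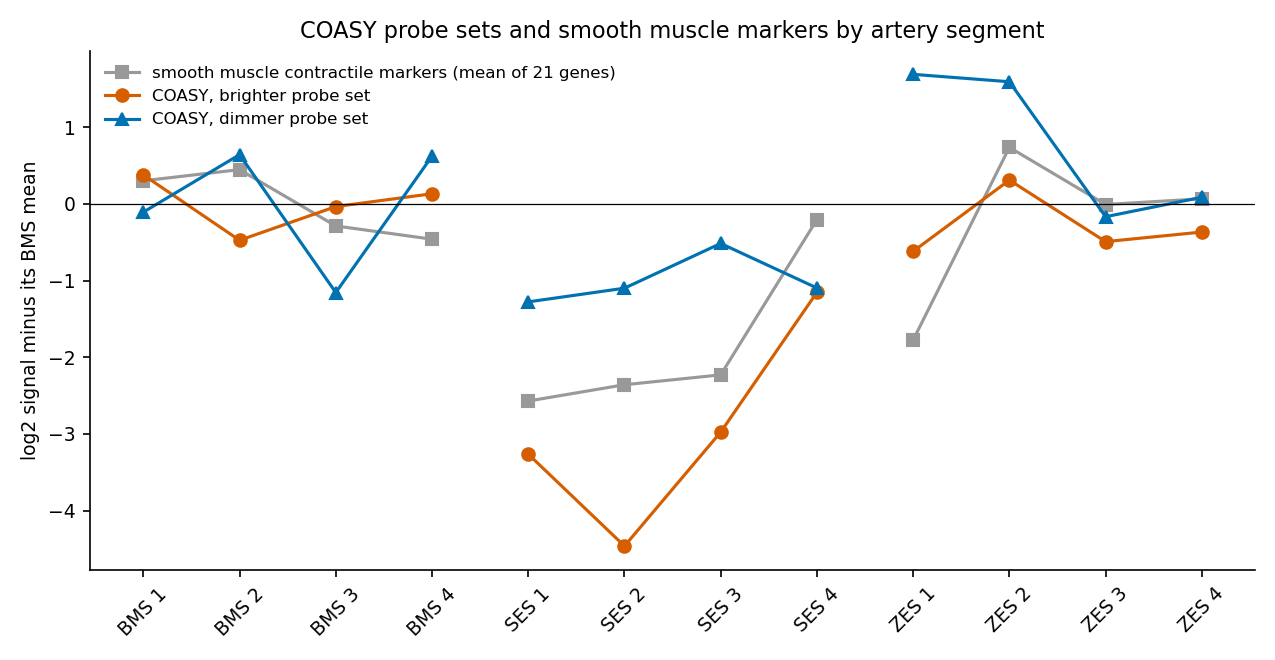
Log2 signal minus its own BMS mean (vertical axis) for both COASY probe sets and for the mean of 21 contractile smooth muscle genes, in each artery segment (horizontal axis); lines join the segments of a stent group and mark no order. On SES 1 to 3 the brighter COASY set and the smooth muscle mean are both low, on SES 4 both are closer to 0, and on ZES 1 the smooth muscle mean is low (10.32) while the brighter COASY set (13.57) lies near the other ZES segments.

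The other genes of each pathway were looked at in 6 lists. In none of the lists did any other gene pass the threshold in any of the 3 stent comparisons, while over all 5793 genes 0.898% passed between SES and BMS and 0.121% between ZES and SES. For coenzyme A, 8 other genes of its synthesis and supply had a median difference between SES and BMS of -0.19, with 2 of them positive and 6 negative. PANK2, a pantothenate kinase at the start of the pathway that COASY ends, read 1.85 ± 0.86 lower with SES (adjusted p = 0.337) and 2.13 ± 0.86 lower with ZES (adjusted p = 0.488) than with BMS. SLC5A6, which carries pantothenate into cells, differed by -0.74 ± 0.73 between SES and BMS. AASDHPPT, which moves phosphopantetheine from coenzyme A to proteins, differed by 0.24 ± 0.25, and VNN2, a vanin, by 0.43 ± 0.66. Between ZES and BMS the median of the list was 0.037.

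Around ASL, 14 other genes of the urea cycle, arginine and nitric oxide were measured, with a median difference between SES and BMS of -0.23, 6 positive and 8 negative. ASS1, argininosuccinate synthase, makes the substrate of ASL, and it read 1.34 ± 0.57 lower with SES than with BMS (adjusted p = 0.284). Its range was 7.76 to 9.0 with BMS and 6.59 to 7.83 with SES. ARG1, arginase, which breaks arginine down, had the widest values of the list. It ran from 2.21 to 12.29 with BMS, from 11.74 to 13.82 with SES and from 6.71 to 13.18 with ZES, and was 5.49 ± 1.51 higher with SES than with BMS (adjusted p = 0.0997). SLC7A1, a carrier of arginine into cells, was 1.23 ± 0.48 higher with SES (adjusted p = 0.234) and 1.32 ± 0.48 higher with ZES (adjusted p = 0.440) than with BMS. GAMT, which makes creatine, was 1.88 ± 0.83 lower with SES (adjusted p = 0.305). The nitric oxide synthases NOS3 and NOS2, picked after their values were seen, differed by -0.23 ± 0.65 and -1.22 ± 1.14 between SES and BMS. NOS2 had means of 5.11 (BMS) and 3.89 (SES), below the mean array backgrounds of 5.51 and 4.72, so its difference is not a measured one. NOS3 with BMS, at 5.66, lay close to background. The lowest ARG1 value with BMS, 2.21, was under the lowest background of any array, 4.15, so the size of the ARG1 difference is uncertain too. None of these genes passed singly, and their values mark the size and spread only.

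Around ASPA, 11 other genes of aspartate and N-acetylaspartate had a median difference between SES and BMS of -0.022, 5 positive and 6 negative. RIMKLB, a ligase that joins glutamate to N-acetylaspartate, was 1.34 ± 0.39 lower with SES (adjusted p = 0.117), with 10.32 to 11.45 on BMS arrays and 8.55 to 10.38 on SES arrays. ADSSL1, an adenylosuccinate synthase of muscle that uses aspartate, was 1.38 ± 0.67 lower (adjusted p = 0.362). ADSS, its counterpart in other tissues, was 1.07 ± 0.79 lower (adjusted p = 0.564). DARS, the aspartyl-tRNA synthetase, was 0.37 ± 0.29 higher with SES than with BMS and 0.95 ± 0.29 lower with ZES than with SES (adjusted p = 0.595 and 0.246). The other aspartate genes thus gave values on both sides of 0.

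Around IDH1, 12 other genes of NADPH production and the pentose phosphate pathway had a median difference between SES and BMS of 0.17, 7 positive and 5 negative. MTHFD2, the mitochondrial folate enzyme, was 0.72 ± 0.46 higher with SES than with BMS and 1.13 ± 0.46 lower with ZES than with SES (adjusted p = 0.499 and 0.413). RPIA, of the pentose phosphate pathway, was 0.93 ± 0.60 higher with SES than with BMS (adjusted p = 0.502). ME2, a mitochondrial malic enzyme, and MTHFD1, the cytosolic folate enzyme, were 0.54 ± 0.41 and 0.49 ± 0.39 higher (adjusted p = 0.571 and 0.602). IDH2, the mitochondrial partner of IDH1, was picked after its values were seen, and it differed by -0.32 ± 0.28 between SES and BMS and by 0.095 ± 0.28 between ZES and SES. Its 12 signals lay between 10.23 and 11.17, and the groups overlapped. In the citric acid cycle, 23 genes had a median of 0.064, 15 positive and 8 negative. IDH3A and IDH3G, 2 subunits of the NAD-dependent isocitrate dehydrogenase, differed by 0.92 ± 0.42 and -0.76 ± 0.37 (adjusted p = 0.326 and 0.369), in opposite directions. FH, the fumarase, whose substrate fumarate is also a product of ASL, was 0.78 ± 0.32 higher with SES (adjusted p = 0.263), and DLAT, a subunit of pyruvate dehydrogenase, was 1.32 ± 0.77 higher (adjusted p = 0.451).

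Fatty acid and sterol synthesis draws on both coenzyme A and NADPH. Its 15 genes had a median difference of 0.14 between SES and BMS, 9 positive and 6 negative, and of 0.39 between ZES and BMS, 12 positive and 3 negative, against 0.012 over all genes. SCD, the stearoyl-coenzyme A desaturase, was 1.41 ± 0.56 higher with SES than with BMS (adjusted p = 0.251). HMGCS1, which starts sterol synthesis, was 1.16 ± 0.49 higher with SES (adjusted p = 0.280) and 1.56 ± 0.49 higher with ZES (adjusted p = 0.405) than with BMS. FDFT1, squalene synthase, was 0.80 ± 0.32 lower with SES (adjusted p = 0.258), and FADS1, a fatty acid desaturase, was 1.17 ± 0.63 lower (adjusted p = 0.410).

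**Figure D5:**
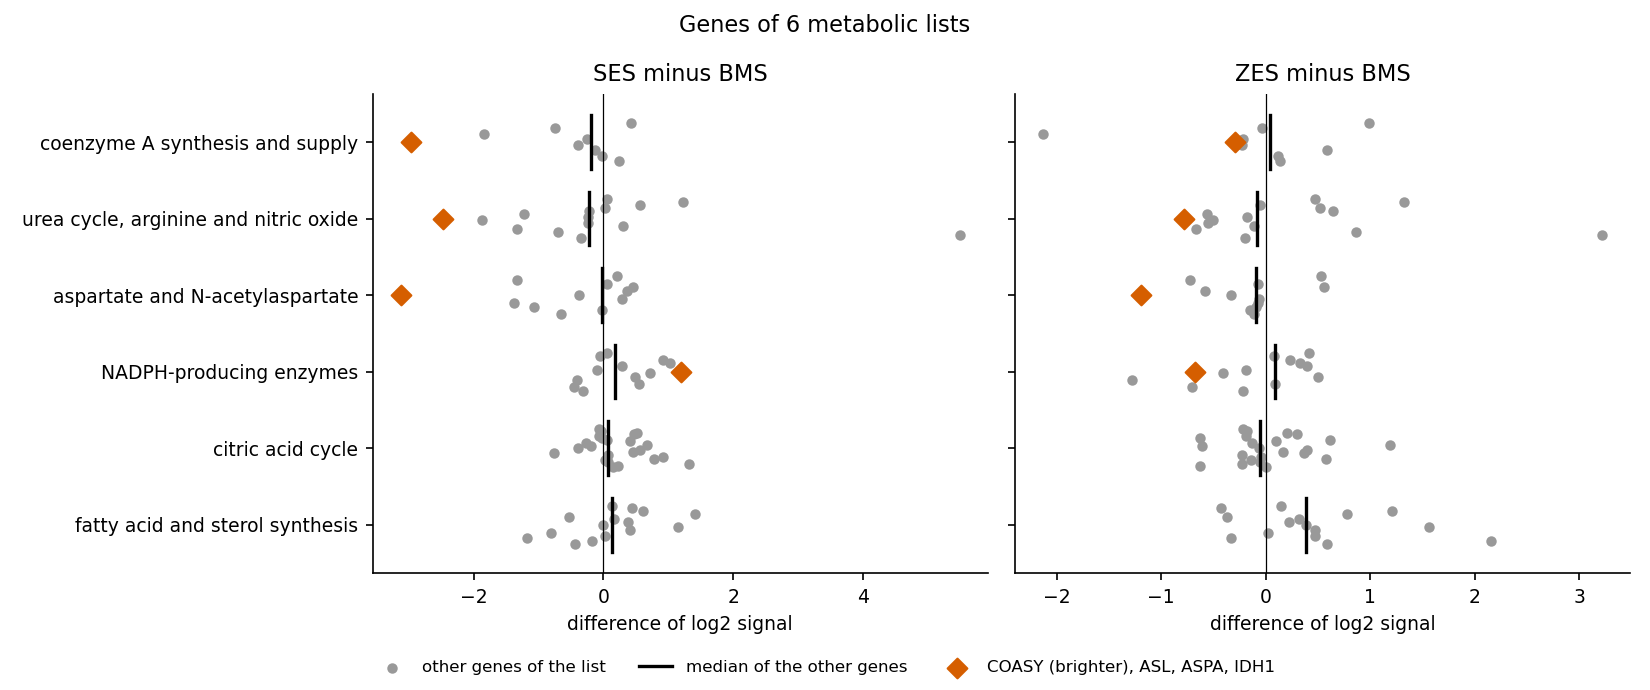
Difference of log2 signal (horizontal axis; the scales of the panels differ) of the other genes in 6 metabolic lists (vertical axis, grey points; black bars are their medians) for SES minus BMS and ZES minus BMS, with COASY (brighter set), ASL, ASPA and IDH1 as diamonds in the list of each. For SES minus BMS the medians lie between -0.23 and 0.17 while the diamonds, which were chosen for this contrast or the related one, lie at -2.96, -2.47, -3.12 and 1.19, and ARG1 is the grey point at 5.49.

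The genes most like each of the 4 over the arrays were found by Pearson's r of log2 signal over the 12 arrays among the other genes tested. These correlations are a description, since the arrays share the stent groups, and r after subtracting each group's mean is given beside them, singly or as a range. For the brighter COASY set they were COL4A2, a collagen of basement membranes, at r = 0.96 (0.88 after subtraction), PEAR1 at 0.95 (0.88), NFKBIL1 at 0.94 (0.80), MARVELD1 at 0.94 (0.81) and LAMB2, a laminin chain, at 0.94 (0.77). COL4A2 had group means of 11.70 (BMS), 9.66 (SES) and 11.47 (ZES), the same order as COASY. The dimmer COASY set had another 5, EIF2B3 at 0.91, ADAM15 at 0.90, PRRC2C at 0.89, PNPLA2 at 0.88 and DECR2 at 0.88 (0.75 to 0.83 after subtraction), and shared none with the brighter set.

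For ASL the list was RNASEH1 at r = 0.89, RNF128 at 0.86, SMTNL2 at 0.86, CD99 at 0.86 and DTNB at 0.86, with values after subtraction from 0.27 for CD99 to 0.73 for RNASEH1. For ASPA it was GPAA1 at 0.93, HSPA12A at 0.89, HTRA1 at 0.89, B3GAT3 at 0.88 and GPC3 at 0.87, with values after subtraction from 0.68 for HTRA1 to 0.88 for GPC3. For IDH1 it was TXN, thioredoxin, at 0.94, MRPL51, a protein of the mitochondrial ribosome, at 0.92, CHCHD3 at 0.91, NECAP2 at 0.90 and IL1B, the cytokine interleukin 1 beta, at 0.89, with values after subtraction from 0.68 for IL1B to 0.77 for TXN. TXN had group means of 15.03 (BMS), 15.60 (SES) and 14.80 (ZES). IL1B had 7.17, 9.34 and 5.02, the same order as IDH1.

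Among the 4 genes, ASL and ASPA varied together most closely, at r = 0.88 over the arrays and 0.56 after the group means were subtracted. The brighter COASY set correlated with ASL at 0.75 and with ASPA at 0.74, which became -0.15 and 0.16 after subtraction. IDH1 correlated with the brighter COASY set at -0.82 and with the dimmer one at -0.84, and at -0.52 and -0.60 after subtraction. The dimmer COASY set correlated with ASL at 0.35 and with ASPA at 0.38, and at -0.50 and -0.075 after subtraction.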

How the data were processed

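The authors used Affymetrix Expression Console 5.0 and MAS5 on a porcine array, as the submitters' processing notes state, and deposited log2 signals. Base 2 was read from the values, whose linear trimmed mean (2% left out at each end) was 500.15 to 500.17 on every array. How low signals were treated is not given in the sources used here. From these values, 124 control probe sets and the 30% of the rest with the lowest mean were left out, and 16799 were tested with no further normalization and a pseudocount of 0. Gene names came from the platform's annotation, with 10069 probe sets of 1 symbol, 198 of several and 13732 of none, and a gene was represented by its probe set with the highest mean. Neither sequences nor coordinates are given.

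Limma 3.58.1 (R 4.3.3, statmod 1.5.0) compared the stent types over all 12 arrays, with duplicateCorrelation for the pig as a random block (consensus correlation -0.032, so the block made the tests slightly more liberal) and eBayes with a variance trend. For LAD against RCA the pig was a fixed block. All tests are two-sided, adjusted by Benjamini-Hochberg over the 16799 probe sets, with a threshold of 0.05 and intervals at 95%. The 95th percentile of 59 controls with no spiked target set an array's background. The procedure was tested on simulated data with independent noise on each array and no effect of the pig. It cannot show how the tests behave with 2 pigs per stent type. Precision is limited by the number of arrays and pigs, and no pair of arrays was identical.

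The 4 genes, the 6 pathway lists and 9 marker lists, the tests and the alternatives were chosen with earlier results of these data known. Named are the probe sets of the 4 genes, the 5 genes most like each probe set, and up to 4 genes per pathway list with the smallest p for SES against BMS, with NOS2, NOS3, IDH2 and the cell type markers past the threshold added after their values were seen. The other cell type markers named are defining genes of their cell type or among the brightest of their list. Alternatives covered the filter, a pseudocount of 32, normalization, the block, the variance trend, array weights, covariates, and leaving out arrays or pigs.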

Additional observations from a re-analysis of the deposited data

Results flagged for a closer look

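ASPA was flagged because the sign of LAD minus RCA was opposite in the BMS and the ZES pigs. With 2 pigs per stent type such a split can easily arise by chance, and all 5 probe sets were searched for it. LAD minus RCA was negative in both BMS pigs (-0.36 and -0.53) and positive in both ZES pigs (2.14 and 1.41), so the mean over the ZES pigs was 2.22 above that over the BMS pigs; this difference was not tested. The 1 SES pig with both arteries gave 2.67, but its RCA segment, SES 3, lay below background for ASPA.

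Arrays far from the others of their stent group were sought in 42 groups of 4 arrays, by the gap to the nearest array as a share of the group's range, and 4 were found, where chance gives about 1 in 20. SES 4 was the highest SES array of the smooth muscle contractile markers (gap 0.856 of the range) and of the cardiomyocyte markers (0.927). SES 3 was the lowest SES array of the endothelial markers (0.864), and BMS 3 the highest BMS array of the monocyte and macrophage markers (0.891). None of the 5 probe sets of COASY, ASL, ASPA and IDH1 had such an array in any group.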

How the results depend on the processing

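COASY, ASL, ASPA and IDH1 kept their sign between SES and BMS and between ZES and SES in all alternatives run. Where arrays or pigs were left out this was fixed in advance, except for the dimmer COASY set, because the segments did not overlap. For SES minus BMS, COASY (-2.96) moved to -1.80 with the spike-in or the smooth muscle mean as a covariate, -1.5 with the GAPDH control and -1.0 in the dimmer set, and IDH1 (1.19) to 0.68 with the smooth muscle mean. That covariate moved IDH1 for ZES minus SES (-1.88) to -1.43. For ZES minus BMS, COASY (-0.29) turned to 0.67 with the spike-in, 0.21 with GAPDH, 0.25 as the mean of both sets and 0.80 in the dimmer set; the dimmer set turned to -0.28 with the spike-in and -0.041 without the pig of ZES 1 and 2. ASL for LAD minus RCA (-0.031) turned to 0.16 and 0.20 without the first or the second BMS pig.

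Of the 4 genes, 3 passed for SES against BMS, where 114 of 16799 probe sets did. This became 1 without the variance trend (19 probe sets) or without the pig of BMS 1 and 2 (69) or of SES 3 and 4 (123). It became 0 with each covariate (0), without the pig of SES 1 and 2 (1), without BMS 1 and ZES 2, high in 28S RNA (26), and at a threshold of 0.01 (8). It was 2 on means per pig, where ASL did not pass (64), and 4 with array weights (673) or without the pig of BMS 3 and 4 (396); without 1 array it was 0 to 3 (0 to 413). For ZES against SES, 2 passed, of 12 probe sets. This became 1 with median centring (6) and without the pig of SES 3 and 4 (59) or of ZES 3 and 4 (40). It became 0 with quantile normalization or no pig block (6 each), means per pig (4), no variance trend (0), only the 8 arrays (5), the covariates (0 to 5), without the pig of SES 1 and 2 (1) or of ZES 1 and 2 (11), without BMS 1 and ZES 2 (4) and at 0.01 (2); without 1 array it was 0 to 2 (0 to 157). The causes were not tested. For ZES against BMS, none of the 4 passed in any alternative, and over all probe sets 0 to 68 did, with 0 in 24 of 32 settings. Median centring shifts SES minus BMS by 0.19 and ZES minus BMS by 0.16 for all genes. No paired analysis was possible because stent type differs only between pigs. The number of pigs, 2 per stent type, limits the precision. So does the background, for ASPA on SES 3 and for ASL on SES 1, SES 3 and SES 4.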
